A study of Mus musculus with 6 samples.

Results

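The genes described here encode 8 subunits of voltage-gated calcium channels, chosen by gene symbol: Cacna1c, Cacna1d, Cacna1g, Cacna1h, Cacnb2, Cacnb3, Cacna2d1 and Cacna2d2. Each symbol was found in all 6 deposited libraries, so the set holds 8 of the 30631 genes listed. RNA sequencing was done on mouse embryonic stem cell-derived cells sorted at stage 7+1 days for CD166, the surface protein encoded by Alcam, as a source of sinoatrial node-like cardiomyocytes. The groups were 3 libraries labelled Shox2-/- and 3 libraries labelled wild type, both grown on mouse embryonic fibroblasts and differentiated as hanging drops. Shox2 encodes a homeodomain transcription factor of pacemaker development, and the design asks which genes differ when it is missing. The sources used here do not give the making of the allele. All Shox2-/- titles begin with 1 shared code, whereas each wild type title has its own, so a genotype effect and a line effect cannot be told apart. Whether replicates were separate cultures is not stated, and a p-value here covers the spread among libraries that may be technical repeats.

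A voltage-gated calcium channel has a pore-forming subunit that opens when the membrane depolarises. L-type pores (Cacna1c and Cacna1d) work together with a beta subunit inside the cell and an alpha2delta subunit on the outer face, both of which raise the number of channels at the surface. T-type pores (Cacna1g and Cacna1h) open at more negative voltages and do not need a beta subunit. In sinoatrial node cells both classes carry inward current during the slow depolarisation that sets the heartbeat, and in working heart muscle the L-type current triggers contraction.

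The class of a pore can be read from its coding sequence, which is why the stretches that separate the classes are shown. The pore loop of repeat III carries an ion-selecting residue whose codon is in capitals, a glutamate codon in L-type and an aspartate codon in T-type genes. These sequences were read from the longest open reading frame of the GENCODE M21 transcripts of GRCm38, 5′ to 3′ in coding direction.
Cacna1c: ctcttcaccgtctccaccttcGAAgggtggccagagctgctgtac
Cacna1d: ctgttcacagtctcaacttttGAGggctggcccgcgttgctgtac
Cacna1g: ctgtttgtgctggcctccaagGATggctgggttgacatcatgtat
Cacna1h: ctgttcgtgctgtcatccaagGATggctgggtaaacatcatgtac

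The pore loop of repeat IV shows the same division, again with the codon of the selecting residue in capitals.
Cacna1c: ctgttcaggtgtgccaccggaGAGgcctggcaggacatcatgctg
Cacna1d: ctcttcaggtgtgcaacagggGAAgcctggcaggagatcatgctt
Cacna1g: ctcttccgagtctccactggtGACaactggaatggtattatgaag
Cacna1h: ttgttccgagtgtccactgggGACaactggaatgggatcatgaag

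The beta subunit binds the alpha-interaction domain in the linker between repeats I and II, and its coding stretch ties the L-type genes to Cacnb2 and Cacnb3. The capitals mark the codons at its conserved core.
Cacna1c: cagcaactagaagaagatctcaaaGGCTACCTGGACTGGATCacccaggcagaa
Cacna1d: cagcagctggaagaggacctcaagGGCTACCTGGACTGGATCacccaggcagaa

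The domain's motif was present in 22 of 22 coding transcripts of Cacna1c and 5 of 5 of Cacna1d, against 0 of 11 of Cacna1g and 0 of 4 of Cacna1h. Of 21810 genes with a coding transcript, 7 (0.0321%) held it, and all of them were pore genes of the calcium channel family. The motif was a fixed pattern chosen to match this domain, so these counts describe the pattern and are not a test. A gene-level count says nothing of which transcript was read, so splice forms of these genes could not be separated.

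The libraries set limits on every value that follows. Shox2 itself was higher in the libraries labelled Shox2-/- (201, 548 and 373 normalized counts, against 89.6, 83.4 and 31.4 in those labelled wild type). Gene-level counts do not show whether this RNA encodes a working protein. The labels were not tested, so every direction given is between labels. Alcam, which encodes the sorting marker CD166, had 4176, 5312 and 4304 normalized counts in Shox2-/- libraries, against 6591, 6526 and 5841 in wild type libraries. Its log2 change was -0.47 (limma adjusted p = 0.242). Wild type libraries 1 and 2 were much alike: 13.9% of genes differed between them by more than counting error, where 5% is expected, against 46.1% to 69.8% in the other 14 pairs. Wild type library 3 stood apart and correlated least with the rest (r from 0.946 to 0.967 across genes on the log2 scale), so the difference of each of the 8 genes is also given without it. Shox2-/- library 1 lay far out as well. On the first principal component, which held 41.7% of the variance, it stood at -65.6, opposite to wild type library 3 at 57.7. The recovered reads numbered 13782017 to 31151471 in Shox2-/- libraries and 13504683 to 34650564 in wild type libraries.

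Cardiomyocyte and pacemaker markers were present but not evenly so. All 8 cardiomyocyte markers were detected in every library. Their summed normalized counts were 7699, 16928 and 26344 in Shox2-/- libraries 1, 2 and 3, against 20926, 19604 and 6858 in wild type libraries 1, 2 and 3. Ttn was the largest part of each sum, with 4509, 10882 and 17592 in Shox2-/- and 12189, 11245 and 2982 in wild type libraries. The sums were not scaled by length. Nkx2-5 had the lowest mean of these 8 markers, with 20.8, 20.6 and 64.4 in Shox2-/- libraries and 36.5, 25.4 and 18.8 in wild type libraries. All 6 pacemaker markers, Hcn4, Isl1 and Shox2 itself among them, were likewise above 0 in every library. The groups did not overlap in 3 of the 6, beside 23.6% of all genes tested. Isl1 and Shox2 were higher and Tbx18 was lower in Shox2-/- libraries, and 0 were called by limma. Markers of endothelium, epithelium and endoderm, neurons, smooth muscle and mesenchyme were also present, so the libraries hold RNA of further cell types. In bulk RNA, fewer cells of a type and less RNA per cell cannot be told apart. Of 4 skeletal muscle markers, Acta1 was above 0 in every library (72.7 to 198), and Myog was above 0 in 5 of 6, with its highest value, 30.6, in wild type library 3. Myod1 was listed at 0 in 5 of 6 libraries and Ckm in 4 of 6.

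Scaled by length, Cacna1h, Cacnb3 and Cacna2d1 made up the upper tier of the 8 genes by mean. Cacna1h, a T-type pore gene known from the embryonic heart, averaged 181 ± 75.2 normalized counts per kb of annotated exon (SD, n = 6 libraries). Cacnb3 encodes a beta subunit best known from smooth muscle and brain and averaged 166 ± 16.2 per kb (SD, n = 6). Cacna2d1, the main alpha2delta gene of heart and skeletal muscle, averaged 145 ± 18.5 per kb (SD, n = 6). The ranges of these 3 genes overlapped, so their order did not exceed the spread between libraries.

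The lower tier by mean held the other pore genes and the partner subunit genes Cacnb2 and Cacna2d2. Cacna1g averaged 34.2 ± 21.8, Cacna1c 23.6 ± 8.10 and Cacna1d 15.9 ± 5.27 per kb (SD, n = 6 each). Cacnb2, the main beta gene of adult heart muscle, averaged 13.6 ± 2.40 per kb and Cacna2d2, best known from the cerebellum, 8.27 ± 4.20 per kb (SD, n = 6 each). The annotated exons of Cacnb2 cover 13228 bases and its longest transcript 5030, so its place among these genes depends on the length used. Each of these genes overlapped its neighbour in the order. Only the step from Cacna2d1 (lowest library 116 per kb) down to Cacna1g (highest library 77.2 per kb) was free of overlap between neighbours. The tiers themselves overlapped, because in wild type library 3 Cacna1h stood at 74.7 per kb, below Cacna1g at 77.2 per kb.

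**Figure D1:**
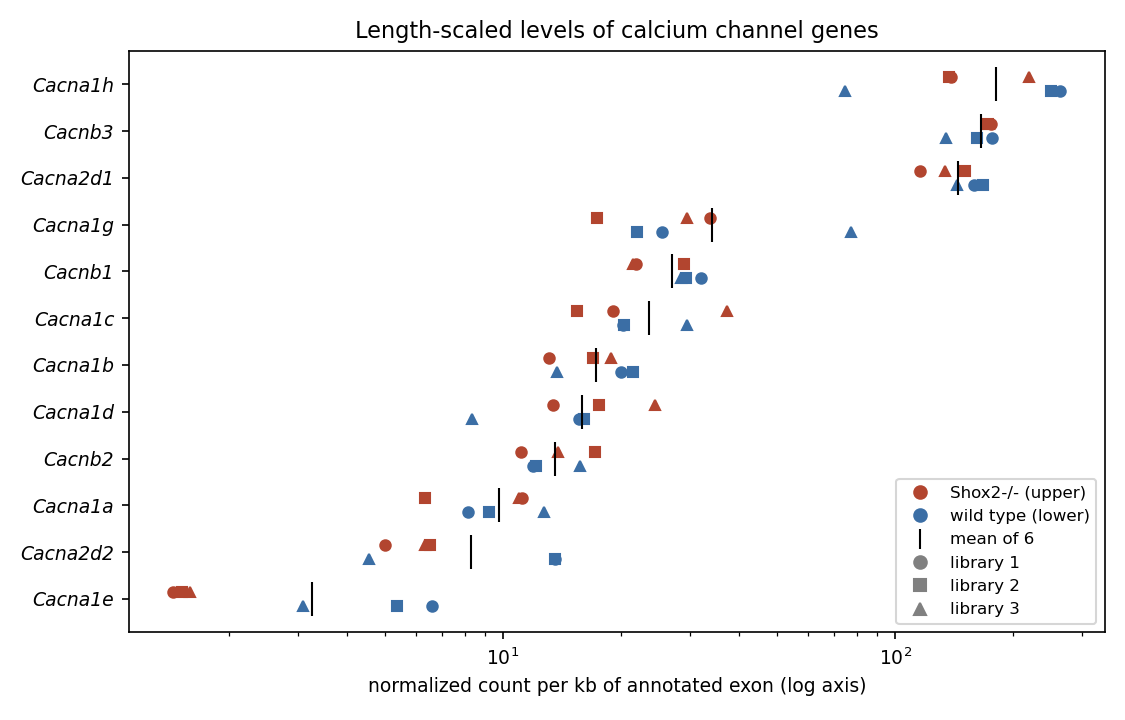
Length-scaled levels of the 8 subunit genes and of Cacnb1, Cacna1b, Cacna1a and Cacna1e, in normalized counts per kb of annotated exon on a log axis; each symbol is 1 library, with the mean of 6 as a bar. The means of Cacna1h, Cacnb3 and Cacna2d1 lie above the others, and wild type library 3 is the lowest for Cacna1h and the highest for Cacna1g.

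No subunit gene passed the test between the labelled groups. In limma, with values as log2(normalized count + 1) and Benjamini-Hochberg adjustment over 17034 genes, 0 of 8 were called, with adjusted p from 0.429 to 0.953. Over all genes tested 0% were called, so the members' count matches the background. At an unadjusted p under 0.05 there were 0 of 8, against 14.2% of all genes, and the groups did not overlap in 0 of 8, against 23.6%. The log2 change was above 0 for 3 members and below 0 for 5, with a median log2 change of -0.06 beside 0.01 over all genes tested. Limma voom on the recovered reads called 0 of 8 as well. Limma with a weight for each library called 1 of 8, which was Cacna2d2, beside 5.84% of all genes tested in that fit. The titles of Shox2-/- library 3 and wild type libraries 1 and 2 hold the tag Diff9, whose meaning is not stated. With a term for it, Cacna1d had an unadjusted p of 0.00665 (limma adjusted p = 0.254), and 2529 of the 17034 genes tested had an unadjusted p under 0.05. Wild type library 3 is the only wild type library without the tag.

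**Figure D2:**
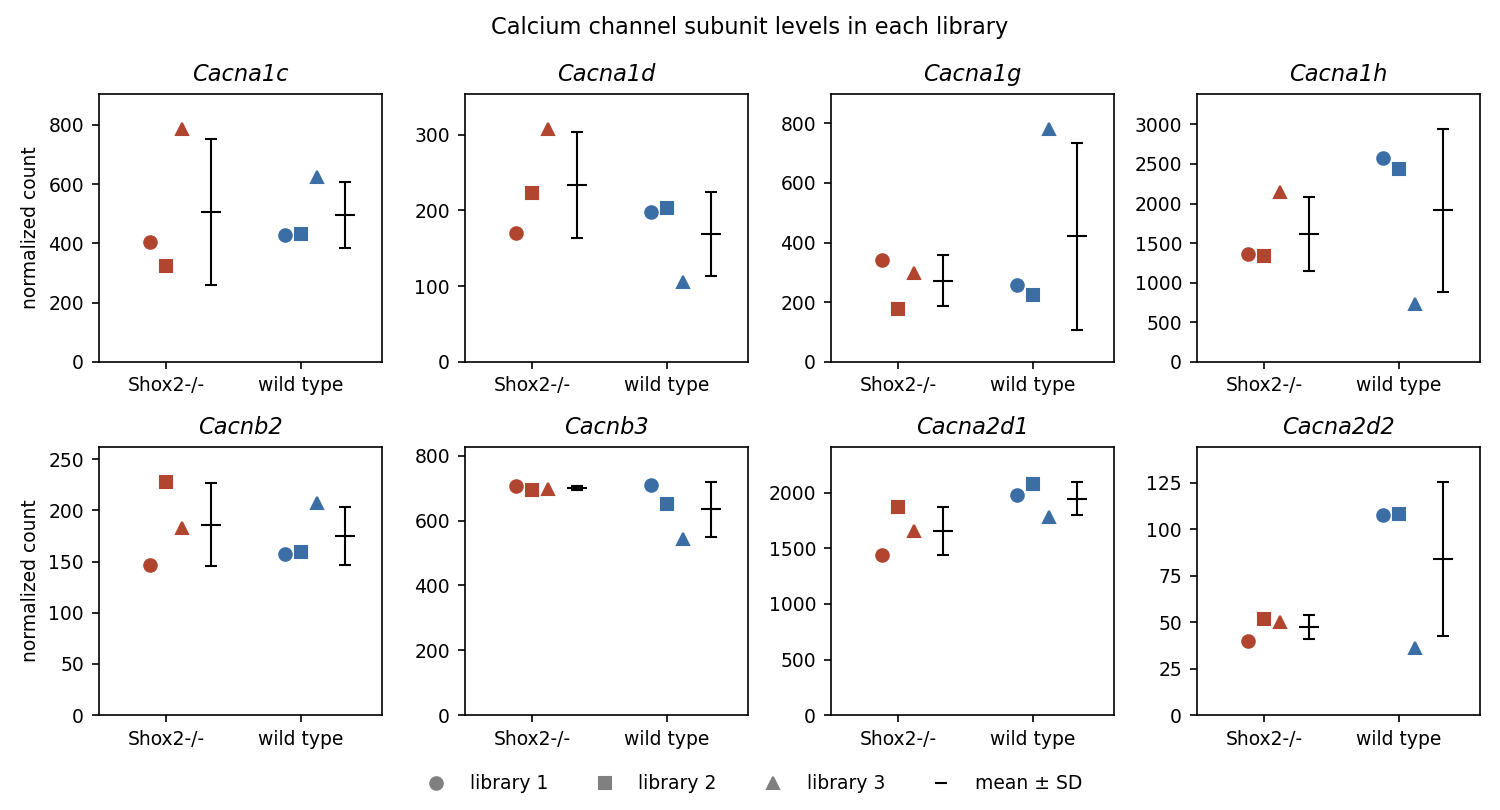
Normalized counts of the 8 subunit genes in each library, with the mean and SD of each group of 3; Shox2-/- libraries are on the left and wild type libraries on the right of each panel. The groups overlap in all 8 panels, and wild type library 3 lies far from wild type libraries 1 and 2 for Cacna1g, Cacna1h and Cacna2d2.

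Among the L-type pores, Cacna1c varied within both groups and Cacna1d had the higher mean in Shox2-/- libraries. Cacna1c (ENSMUSG00000051331; chromosome 6, minus strand, 118587240 to 119196418), the L-type pore gene of working heart muscle, had 405, 325 and 788 normalized counts in Shox2-/- libraries, against 428, 433 and 623 in wild type libraries. Shox2-/- library 3 was the highest and Shox2-/- library 2 the lowest of all 6, so 1 group spanned the other. The means were 506 ± 247 in Shox2-/- and 495 ± 111 in wild type libraries (SD, n = 3 each). On the log2 scale the Shox2-/- mean was the lower one, with a log2 change of -0.05 (SE 0.33, 95% interval -0.83 to 0.72; limma adjusted p = 0.953), and its sign turned without wild type library 3 (0.13), Shox2-/- library 1 (0.06) or Shox2-/- library 2 (0.21).

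Cacna1d (ENSMUSG00000015968; chromosome 14, minus strand, 30039939 to 30491455) encodes the L-type pore that opens at more negative voltages and is needed for normal sinoatrial rhythm in mice. It had 170, 223 and 308 normalized counts in Shox2-/- libraries, against 198, 203 and 105 in wild type libraries. Shox2-/- libraries 2 and 3 lay above every wild type library, while Shox2-/- library 1 lay below wild type libraries 1 and 2. The means were 233 ± 69.9 in Shox2-/- and 169 ± 55.1 in wild type libraries (SD, n = 3 each), a log2 change of 0.48 (SE 0.33, 95% interval -0.28 to 1.25; limma adjusted p = 0.514). Without wild type library 3 it was 0.18 (limma adjusted p = 0.754), without Shox2-/- library 3 it was 0.26, and with a term for the Diff9 titles it was 0.75. Of the 8 cardiomyocyte markers, 4 (Tnnt2, Myh7, Ttn and Nkx2-5) were highest in Shox2-/- library 3, as Cacna1d was, and the other 4 were highest in wild type library 1, where Ryr2 was level with wild type library 2. Shox2-/- library 1 and wild type library 3 held the lowest values of Cacna1d and of 5 of these 8 markers. Their part in its values was not tested. Its exons share 589 bases with Chdh on the opposite strand, whose values were 5.50 to 13.7, and whether reads were counted by strand is not given.

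The T-type pores moved in opposite directions in wild type library 3. Cacna1g (ENSMUSG00000020866; chromosome 11, minus strand, 94408391 to 94474198), the main T-type pore gene of the mouse sinoatrial node, had 343, 176 and 298 normalized counts in Shox2-/- libraries, against 257, 223 and 783 in wild type libraries. The value of wild type library 3 was over every other, and the remaining 5 libraries overlapped. The means were 272 ± 86.2 in Shox2-/- and 421 ± 314 in wild type libraries (SD, n = 3 each), a log2 change of -0.44 (SE 0.49, 95% interval -1.59 to 0.71; limma adjusted p = 0.707). Without wild type library 3 its sign turned, to 0.13.

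Cacna1h (ENSMUSG00000024112; chromosome 17, minus strand, 25374285 to 25433783) had 1358, 1338 and 2150 normalized counts in Shox2-/- libraries, against 2581, 2441 and 729 in wild type libraries. The wild type libraries thus held both the highest and the lowest values of the 6. The means were 1615 ± 463 in Shox2-/- and 1917 ± 1031 in wild type libraries (SD, n = 3 each), a log2 change of -0.08 (SE 0.48, 95% interval -1.20 to 1.04; limma adjusted p = 0.951). Without wild type library 3 all 3 Shox2-/- values lay below the others, with a log2 change of -0.67 (SE 0.22; limma adjusted p = 0.262), which did not pass. Without any 1 of wild type libraries 1 and 2 and Shox2-/- libraries 1 and 2 its sign turned, to 0.24, 0.20, 0.03 and 0.04 in that order. The summed endothelial markers Pecam1, Cdh5 and Kdr were 7149, 8694 and 10002 in Shox2-/- libraries, against 12241, 12221 and 2791 in wild type libraries, most of it Kdr. Cacna1h was highest in wild type library 1, as only Cdh5 of the 3 was, and lowest in wild type library 3, as Pecam1 and Kdr were. The summed neural markers were 519, 376 and 349 in Shox2-/- libraries, against 450, 433 and 2095 in wild type libraries, and all 6 were highest in wild type library 3, where Cacna1g was highest. The part of these markers in either gene's values was not tested.

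Of the beta subunit genes, Cacnb3 was the steadiest member. Cacnb3 (ENSMUSG00000003352; chromosome 15, plus strand, 98630840 to 98644529) had 706, 694 and 698 normalized counts in Shox2-/- libraries, against 710, 650.5 and 542 in wild type libraries. The Shox2-/- libraries differed from each other by a factor of 1.02 and all lay inside the range of the wild type libraries. The log2 change was 0.15 (SE 0.13, 95% interval -0.16 to 0.46; limma adjusted p = 0.626), 0.04 without wild type library 3 and 0.24 without wild type library 1.

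Cacnb2 (ENSMUSG00000057914; chromosome 2, plus strand, 14603088 to 14987908) had 147, 228 and 183 normalized counts in Shox2-/- libraries, against 158, 160 and 207 in wild type libraries. Both groups covered nearly the same range. The log2 change was 0.08 (SE 0.22, 95% interval -0.44 to 0.59; limma adjusted p = 0.893), 0.20 without wild type library 3 and -0.08 without Shox2-/- library 2. Its exons overlap 3 annotated genes on the opposite strand, Gm10848, Gm10849 and Gm13269. The highest value that could be read for these was 14.8, for Gm13269.

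Both alpha2delta genes had lower means in Shox2-/- libraries. Cacna2d1 (ENSMUSG00000040118; chromosome 5, plus strand, 15934691 to 16374511), whose product is a binding site of gabapentin, had 1441, 1870 and 1658 normalized counts in Shox2-/- libraries, against 1977, 2080 and 1783 in wild type libraries. Only Shox2-/- library 2 reached into the wild type range. The means were 1656 ± 214 in Shox2-/- and 1946 ± 151 in wild type libraries (SD, n = 3 each), a log2 change of -0.24 (SE 0.13, 95% interval -0.54 to 0.06). It had the lowest p of the 8 members and did not pass (limma adjusted p = 0.429). Without wild type library 3 the log2 change was -0.30 (limma adjusted p = 0.320), and without Shox2-/- library 1 it was -0.14 (limma adjusted p = 0.740).

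Cacna2d2 (ENSMUSG00000010066; chromosome 9, plus strand, 107399612 to 107529343) had 39.8, 51.8 and 50.4 normalized counts in Shox2-/- libraries, against 108, 108 and 36.1 in wild type libraries. Wild type libraries 1 and 2 were over every Shox2-/- library and wild type library 3 was under all of them. The means were 47.3 ± 6.57 in Shox2-/- and 84.1 ± 41.5 in wild type libraries (SD, n = 3 each), a log2 change of -0.66 (SE 0.44, 95% interval -1.70 to 0.37; limma adjusted p = 0.509). Without wild type library 3 it was -1.18 (SE 0.23; limma adjusted p = 0.191). It was -0.41 without wild type library 1, -0.40 without wild type library 2 and -0.38 with a term for the Diff9 titles. With a weight for each library, where wild type library 2 weighed 9.44 and wild type library 3 weighed 0.202, limma called it lower at -1.12 (adjusted p = 0.0411, in a range of 0.0411 to 0.794 over the 16 alternatives). This gene rested on 23 to 166 reads, and counting error alone was 20.9% at 23 reads.

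**Figure D3:**
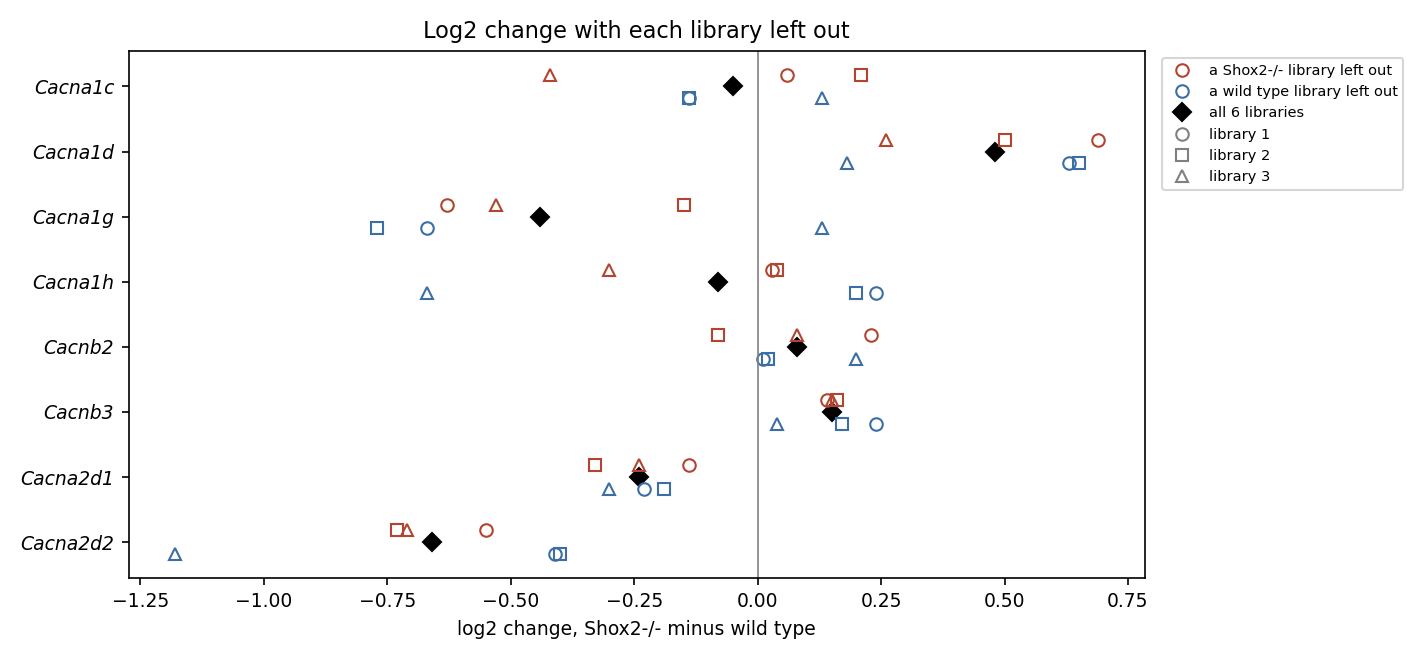
Log2 change of each subunit gene, Shox2-/- minus wild type, with all 6 libraries (diamonds) and with each library left out in turn (open symbols, coloured by the group of the library left out). Leaving out wild type library 3 moved Cacna1h to -0.67, Cacna2d2 to -1.18 and Cacna1g to 0.13, and turned the sign of Cacna1c to 0.13.

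Set against each other within a library, the pore genes of a class stood in a different proportion in wild type library 3 than in the other libraries. Cacna1h made up 80.5%, 88.8% and 88.2% of the length-scaled T-type level in Shox2-/- libraries, against 91.2%, 91.9% and 49.2% in wild type libraries. The other libraries were thus dominated by Cacna1h, and in wild type library 3 both T-type genes stood at nearly the same level. Cacna1d made up 41.3%, 53.5% and 39.6% of the length-scaled L-type level in Shox2-/- libraries, against 43.6%, 44.1% and 22.1% in wild type libraries. Here too wild type library 3 was lowest. Cacna1c held the larger part in every library except Shox2-/- library 2.

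Of the summed level of the 4 pore genes Cacna1c, Cacna1d, Cacna1g and Cacna1h, T-type genes held most in every library. Their share was 84.2%, 82.4% and 80.2% in Shox2-/- libraries and 89.0%, 88.2% and 80.1% in wild type libraries. Other pore genes, such as Cacna1b and Cacna1a, were left out of this sum. With low Cacna1h and high Cacna1g, wild type library 3 was at the lower end of this range, close to Shox2-/- library 3. Cacnb3 made up 94.1%, 90.9% and 92.6% of the beta pair in Shox2-/- libraries and 93.7%, 93.1% and 89.6% in wild type libraries. Cacna2d2 made up 4.14%, 4.15% and 4.53% of the alpha2delta pair in Shox2-/- libraries and 7.86%, 7.52% and 3.07% in wild type libraries. The groups overlapped in all 5 shares. No test was run on them.

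**Figure D4:**
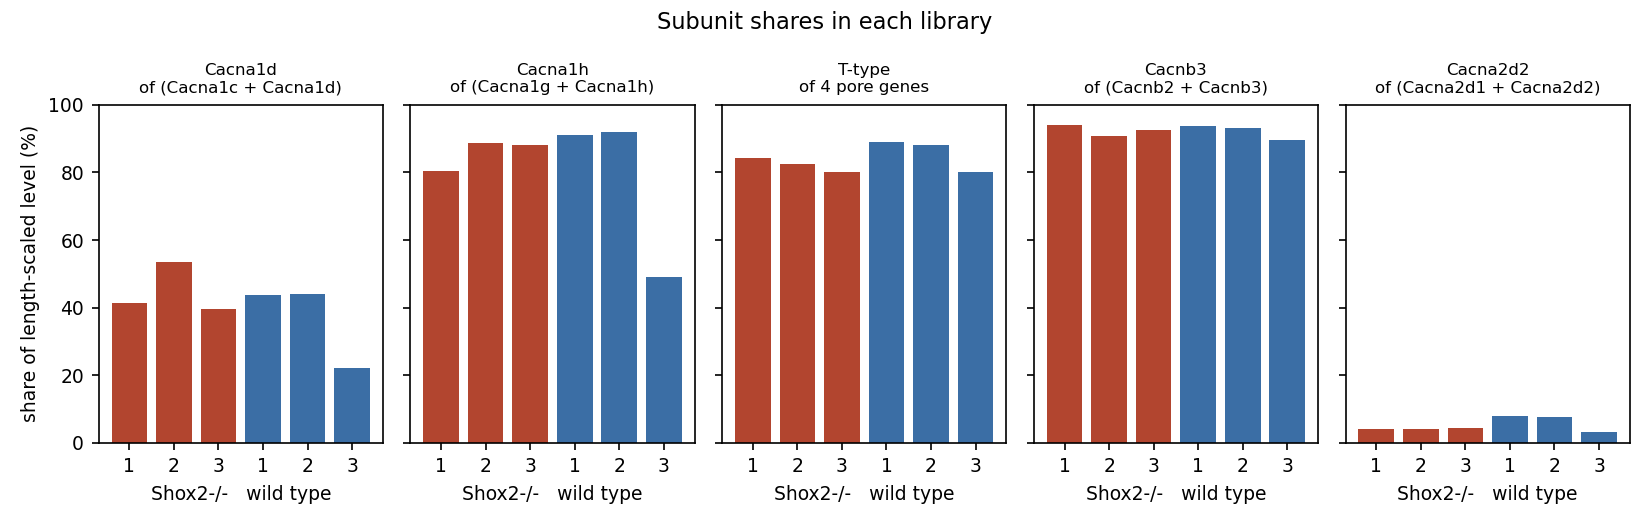
Share in percent of the length-scaled level held by 1 subunit or class, for each library, with Shox2-/- libraries left of wild type libraries in each panel. Wild type library 3 differs from the other 5 in the Cacna1h share (49.2%) and the Cacna1d share (22.1%), while Cacnb3 stays near or above 89.6% in all 6.

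Across the 6 libraries the members followed several patterns. Of the 28 pairs, Cacna1h and Cacna2d2 ran most alike (Pearson r = 0.829 on the log2 scale, n = 6), and Cacna1g and Cacnb3 most opposite (r = -0.797). Cacna1d ran with Cacnb3 (r = 0.788) and Cacna1h (r = 0.752) and opposite to Cacna1g (r = -0.762). These r are descriptions over 6 libraries, and how far each rests on wild type library 3 was not tested. Wild type libraries 1 and 2 are nearly 1 point. Of all genes tested, those most like Cacna1d were Tnni1, the slow troponin I gene of embryonic heart muscle, and Phactr2 (both r = 0.995), among 45 genes with r over 0.95. For Cacna1g they were Ass1 and Eprs (both r = 0.996), among 101 such genes. For Cacna1h they were Ggnbp1 (r = 0.995) and Optn (r = 0.994), among 146. For Cacna1c they were Lsp1 (r = 0.991) and Cyp20a1 (r = 0.990), among 11. Each was picked from 17033 genes over 6 libraries, so these values single out no gene.

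The remaining genes of the channel family were mostly low, and Cacna1e differed most between the groups. Of 18 other subunit genes, 15 were listed, 8 were high enough to be tested and 0 were called over all genes by limma, with 2 at an unadjusted p under 0.05, both lower in Shox2-/- libraries, beside 14.2% of all genes tested and 7.23% lower. Cacna1e (ENSMUSG00000004110), the pore gene of R-type channels, had 36.3, 38.4 and 40.0 normalized counts in Shox2-/- libraries, against 166, 136 and 77.7 in wild type libraries. It was the only 1 of these 8 whose groups did not overlap, beside 23.6% of all genes tested. Its log2 change was -1.63 (SE 0.31, 95% interval -2.36 to -0.91), with an unadjusted p of 0.00101 and a limma adjusted p of 0.185. Without wild type library 3 it was -1.95 (limma adjusted p = 0.130), and with a weight for each library it was called lower (-1.81, limma adjusted p = 0.00604, in a range of 0.00604 to 0.523 over the 16 alternatives). Cacng4, a gene of the gamma subunit family, had 29.4, 18.8 and 13.3 normalized counts in Shox2-/- libraries, against 34.9, 29.3 and 47.9 in wild type libraries (log2 change -0.88, limma adjusted p = 0.352).

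Other family members bear on how the 8 genes rank. Cacnb1, the beta subunit gene of skeletal muscle, averaged 27.0 ± 4.32 per kb of annotated exon (SD, n = 6), with a log2 change of -0.32 (limma adjusted p = 0.486). By this measure it was above Cacnb2 in all 6 libraries. That order depends on the length used: without length scaling Cacnb2 was the higher one, with a mean of 180 normalized counts against 122 for Cacnb1. The neuronal pore genes Cacna1b (N-type) and Cacna1a (P/Q-type) averaged 17.3 ± 3.40 and 9.76 ± 2.32 per kb (SD, n = 6 each), near the level of Cacna1d. Cacnb4 had a log2 change of 0.46 (limma adjusted p = 0.600), which was 0.175 without wild type library 2, 0.28 without Shox2-/- library 3 and 1.02 with a weight for each library. The 7 listed genes too low to test, Cacna1f of the retina and the T-type gene Cacna1i among them, reached at most 20.8 normalized counts.

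Genes that regulate the channels were measured beside them. Of 25 listed, 24 were tested, 0 were called over all genes by limma, and 3 had an unadjusted p under 0.05, with 1 higher (6.92% of all genes tested were) and 2 lower (7.23% were) in Shox2-/- libraries. Rrad, a small GTPase that inhibits L-type channels through the beta subunit, had 170, 259 and 212 normalized counts in Shox2-/- libraries, against 349, 320.0 and 280 in wild type libraries (log2 change -0.58, SE 0.20, limma adjusted p = 0.290). With a weight for each library limma called Rrad lower (-0.62, adjusted p = 0.0380, in a range of 0.0380 to 0.574 over the 16 alternatives). Akap7, which anchors protein kinase A at L-type channels, had 650.5, 796 and 967 normalized counts in Shox2-/- libraries, against 1001, 1060 and 1472 in wild type libraries (log2 change -0.55, SE 0.20, limma adjusted p = 0.306, and -0.29 with a weight for each library). The groups of both genes did not overlap.

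Calm3, a gene for calmodulin, the calcium sensor of the L-type pore, had 6642, 6231 and 6032 normalized counts in Shox2-/- libraries, against 5422, 5235 and 4678 in wild type libraries (log2 change 0.30, SE 0.10, limma adjusted p = 0.287). Calm2, which also encodes calmodulin, had a log2 change of 0.16 (limma adjusted p = 0.638), and its groups overlapped. Bin1, a scaffold that brings L-type channels to membrane folds, had 2393, 1873 and 2149 normalized counts in Shox2-/- libraries, against 1867, 1749 and 1714 in wild type libraries (log2 change 0.26, SE 0.12, limma adjusted p = 0.366), and its groups did not overlap. In all, 5 of the 24 regulators (20.8%) had groups that did not overlap, beside 23.6% of all genes tested. Of these, 2 were higher, beside 12.8% of all genes, and 3 were lower, beside 10.8%. Further regulators with means over 1000 normalized counts were the kinase genes Camk2d, Camk2g, Prkaca and Prkacb, the calcineurin genes Ppp3ca and Ppp3cb, the anchor Akap5 and Ahnak, whose product binds beta subunits. Their log2 changes ran from -0.07 for Ahnak to 0.40 for Akap5, with adjusted p in limma of at least 0.367.

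**Figure D5:**
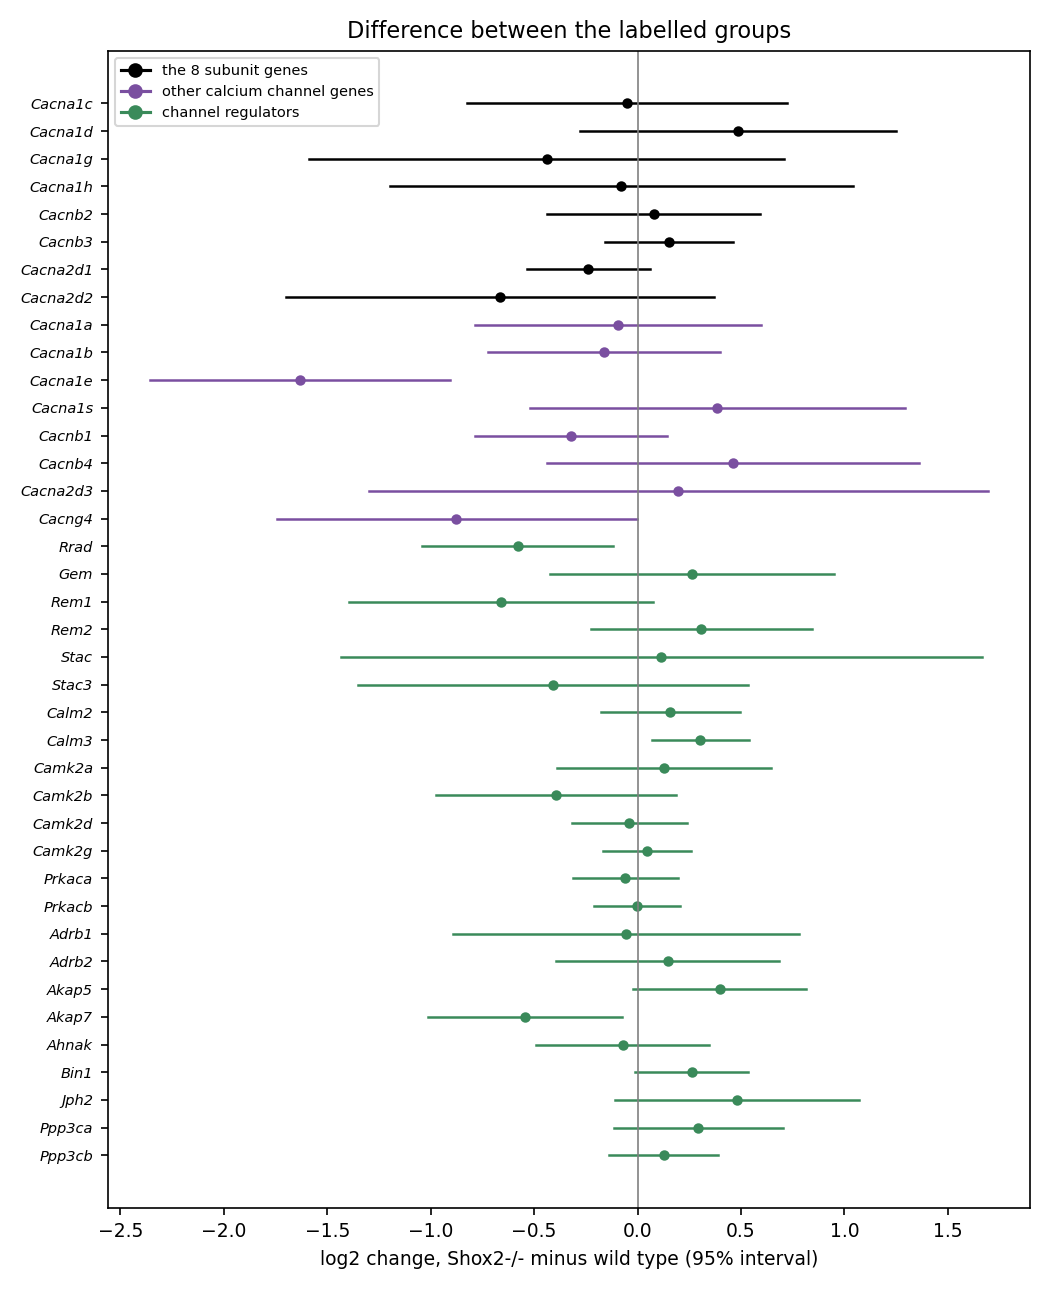
Log2 change, Shox2-/- minus wild type, with 95% intervals from limma for the 8 subunit genes (black), 8 other calcium channel genes (purple) and the channel regulators reported here (green). The intervals of all 8 subunit genes cross 0, and that of Cacna1e runs from -2.36 to -0.91.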

How the data were processed

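The deposited files hold 1 normalized value per gene and library, a gene-level read count that the authors divided by 1 size factor per library, as worked out from the values: low values were whole multiples of 1 step, and division by it gave whole reads, within 0.1 reads, for 100.0% of values up to 1000 reads. The tools DESeq2 1.14.0, HTSeq, BWA and CASAVA 1.8.2 and the build mm10 are named, without roles, per the submitters' processing notes. Strand use is not given in the sources used here. The 17034 genes that reached 10 in 3 or more libraries were fitted as log2(value + 1), which understates changes of low genes. The fit used limma 3.58.1 in R 4.3.3 (mean-variance trend, two-sided, threshold 0.05). The fit was also tried on simulated data, in which every library had the same spread around the group mean. The real libraries differ in this, so the simulation does not show how the fit performs here. Positions and exon lengths came from GENCODE M21 (GRCm38, also called mm10), matching 30484 of 30631 IDs. Levels were compared between genes only per kb of the union of annotated exons. Wild type libraries 1 and 2 were kept separate, as labelled. All members and 4 genes per list with the lowest p, or with means over 1000, are named, with 2 genes per pore gene by likeness, except 1 regulator that is counted but not reported here. Members and lists were chosen with earlier results of these data known. The counting error of a value covers read sampling only.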

Additional observations from a re-analysis of the deposited data

How the results depend on the processing

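Over the 16 alternatives, 0 of 8 members were called in all but limma with a weight for each library, which called 1 (Cacna2d2), 1 other calcium channel gene (Cacna1e), 1 regulator (Rrad) and 994 genes over all. Genes called over all were 2 without the filter on low values, and 0 to 51 with each library left out, the 51 without Shox2-/- library 2. Weighting turned the log2 change of Cacna1c to 0.42 and of Cacna1g to 0.24. A replicate block, with Diff9 titles (Shox2-/- library 3, wild type libraries 1 and 2) as a term, turned Cacna1c to 0.05 and Cacna1h to 0.33, moved Cacna1d to 0.75 (unadjusted p = 0.00665) and made 0 calls. The mean of wild type libraries 1 and 2 as 1 sample turned Cacna1h to 0.22. With each library left out, Cacna1c ran from -0.42 (without Shox2-/- library 3) to 0.21 (without Shox2-/- library 2), Cacna1g from -0.77 (without wild type library 2) to 0.13 (without wild type library 3), Cacna1h from -0.67 (without wild type library 3) to 0.24 (without wild type library 1) and Cacnb2 from -0.08 (without Shox2-/- library 2) to 0.23 (without Shox2-/- library 1). The signs of Cacna1d, Cacnb3, Cacna2d1 and Cacna2d2 held in every alternative run. The causes were not tested. Without length scaling, mean shares in Shox2-/- libraries were 32.7% for Cacna1d, 72.4% for T-type, 79.1% for Cacnb3 and 2.78% for Cacna2d2, and in wild type libraries 76.7% for T-type and 78.2% for Cacnb3, by the measure's construction. With the longest transcript as length they were 78.9% for T-type, 87.4% for Cacnb3 and 3.53% for Cacna2d2 in Shox2-/- libraries and 86.7% for Cacnb3 in wild type libraries. Scaling by upper quartiles was chosen after seeing the data. Some planned tests and scalings were not run, among them the count-model tests edgeR and DESeq2. Limma voom on the recovered reads and scaling by library totals were planned and run. No numbers pair all libraries across the groups, so the block is not a paired analysis. Depth limits Cacna2d2 most, at 23 reads in Shox2-/- library 1.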
